A study of Homo sapiens with 4 samples.

Results

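The cyclin-dependent kinases *CDK1*, *CDK2*, *CDK4*, *CDK6* and *CDK7* and the inhibitors *CDKN1A*, *CDKN1B*, *CDKN2C*, *CDKN2D* and *CDKN3* were examined in RNA that co-precipitated with the RNA-binding protein TIA1. The 10 genes were taken by symbol, with earlier results of these data known, and all 10 were among the 13037 genes kept on the arrays. The cells were KYSE180, an established line from a human esophageal squamous cell carcinoma, with no treatment named in the labels. In ribonucleoprotein immunoprecipitation (RIP), an antibody recovers a protein together with the RNA attached to it. Cytoplasmic lysate was incubated with rabbit anti-TIA1 antibody, and the recovered RNA (TIA1 RIP, replicates 1 and 2) was compared with total RNA, which the labels call input (replicates 1 and 2). The sources used here do not fully state whether that RNA came from the cytoplasmic lysate or from whole cells. A ratio above 0 can thus hold binding to TIA1, a larger share in the cytoplasm and unspecific recovery with the beads or antibody. These cannot be told apart. Each of the 4 RNAs was labelled from 0.2 μg and hybridized to a single-colour Agilent array. The comparison asks which transcripts are over-represented among those recovered with the anti-TIA1 antibody. No source used here says that the replicates were separate cultures, so the p-values measure only the spread between these arrays, which may be technical. IgG immunoprecipitates, a control for unspecific recovery, were not analysed here.

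Cyclin-dependent kinases drive the cell cycle when bound to a cyclin. CDK4 and CDK6 act with D-type cyclins in G1 phase, CDK2 acts with cyclins E and A around S phase, and CDK1 acts with cyclins A and B to start mitosis. CDK7 phosphorylates the other kinases in their activation loop and also serves in the transcription factor TFIIH. CDKN1A and CDKN1B belong to the Cip/Kip inhibitors, which bind cyclin-kinase complexes. CDKN2C and CDKN2D are INK4 inhibitors, which bind CDK4 and CDK6 and keep D-type cyclins away. CDKN3 is a phosphatase that removes the activating phosphate from CDK2. TIA1 is known to bind U-rich RNA and to act on splicing, mRNA stability and translation.

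The stretches below are printed because TIA1 is known to prefer uridine-rich RNA. Each is the 30 bases with the most T in the 3′ untranslated region (3′ UTR) of the annotated main transcript, read 5′ to 3′ on the transcript strand of GRCh37. T stands for the U of the RNA, and capitals mark runs of at least 3 T. The genes shown are the 3 whose TIA1 RIP signals lay above both total RNA signals, then *CDK6*, *CDK4*, *CDK2* and *CDKN1A*, whose groups overlapped, and *GAPDH*, the reference mRNA of the study.
CDK1 (chr10:62553778-62553807, plus strand): tgTTTTTattgttaactcttgtctaTTTTT
CDK7 (chr5:68573093-68573122, plus strand): actatgggttaTTTTTattaaatgtaTTTT
CDKN2C (chr1:51440161-51440190, plus strand): cTTTgacTTTcttctgaataTTTTatcTTT
CDK6 (chr7:92243482-92243511, minus strand): ttgTTTgttgttgttaTTTTgTTTTTgTTT
CDK4 (chr12:58141995-58142024, minus strand): atggtcTTTTTTTTTTTTTTaatgTTTctt
CDK2 (chr12:56366358-56366387, plus strand): tagtagagttggcTTTTTTTTTTTTTTTTT
CDKN1A (chr6:36653656-36653685, plus strand): TTTgtgtgtcttaattattaTTTgtgTTTT
GAPDH (chr12:6647499-6647528, plus strand): ttgtcatgtaccatcaataaagtaccctgt

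These stretches held 20 T in *CDK1*, 17 in *CDK7*, 18 in *CDKN2C*, 23 in *CDK6*, 22 in *CDK4*, 21 in *CDK2*, 20 in *CDKN1A* and 10 in *GAPDH*. Among genes with a 3′ UTR within a factor of 1.2 of the same length, 26.8% held a window at least as rich in T as that of *CDK1*, 35.2% as that of *CDK7* and 25.5% as that of *CDKN2C*. This share was lower for *CDK4* (10%) and *CDK2* (24.1%), whose TIA1 RIP and total RNA signals overlapped. The share was 72.3% for *CDK6*, whose 3′ UTR of 10219 bases gives many windows to choose from, 43.2% for *CDKN1A* and 91.6% for *GAPDH*. The 3′ UTR of the other kinases and inhibitors ran from 140 bases in *CDKN3* to 1532 bases in *CDKN1A*. The motif ATTTA, searched on the transcript strand with overlaps counted, occurred 26 times in the 3′ UTR of *CDK6*, 7 times in *CDKN1B*, 5 times in *CDK1* and not in *CDK4* or *CDKN3*. All 148 genes with a 3′ UTR about as long as that of *CDK6* held it (100%), as did 71.8% of those near the length of *CDK1*. The share was 82.3% near the length of *CDKN1B*, 67.5% near that of *CDK4* and 21.7% near that of *CDKN3*. A match is a description of the sequence, and binding at these positions was not measured.

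Signals are given as log2 of the processed fluorescence minus the 75th percentile of the array, so 0 is the brightness that 75% of the spots lie below. They are compared within a gene only, since probes differ in brightness for reasons other than abundance. In fluorescence units that percentile lay between 714 and 1514 on 3 of the arrays, with 45.8% to 48.4% of their spots well above background. Total RNA replicate 2 stood apart, with a percentile of 69.9 and 32.2% of spots well above background, so results are also given against each total RNA array. Across genes, the SD of the log2 difference was 2.00 between the total RNA arrays and 0.89 between the TIA1 RIP arrays. All 9 markers of squamous epithelium, such as *KRT5* and *TP63*, were kept. Among markers of other cells, *CD3E*, *PECAM1*, *COL3A1* and *ALB* were detected on 0 arrays. *PTPRC*, *CD14*, *VWF* and *DES* were detected on 4 arrays and *COL1A1* on 3. These 5 were kept, with median log2 signals of -2.16 and -1.53 in TIA1 RIP and -1.16 and -0.32 in total RNA. *DES* had 0.61 and 1.03 in TIA1 RIP and 0.41 and 3.51 in total RNA, and *CD14* reached 1.24 on total RNA replicate 2. The part of these markers in the results was not tested.

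*CDK1*, *CDK7* and *CDKN2C* were the 3 genes of the 10 with both TIA1 RIP signals above both total RNA signals, and 0 of the 10 had both below. Of all 13037 genes, 19.4% lay above in this way and 21.7% below. None of the 10 passed an adjusted p of 0.05 in limma (lmFit and eBayes with Benjamini-Hochberg adjustment over all genes), where 0% of the genes were called higher and 0% lower. At an unadjusted p under 0.05, limma had 144 genes higher (1.1%) and 524 lower (4.02%), and *CDK1* was among the former. The log2 ratio of the group means was above 0 for 10 of the 10 genes, against 48.6% of all genes. The median over the 10 was 0.55, against -0.036 over all genes. *CDKN1A*, at 0.095, was kept through the TIA1 RIP arrays, as it was not well above background on total RNA replicate 2. With only probes detected on all 4 arrays, 9 of the 10 were kept, all above 0. The median of all genes depended on the filter, at -0.35 with those probes and -0.57 with no filter on detection. The count of 10 became 9 with normexp background correction or with the brightest probe of each gene, 8 without TIA1 RIP replicate 1 or total RNA replicate 1, and 7 without total RNA replicate 2. The ratio sets an immunoprecipitate against total RNA and is not a change in expression. Within bulk total RNA, fewer cells with a transcript and less of it per cell cannot be told apart.

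**Figure D1:**
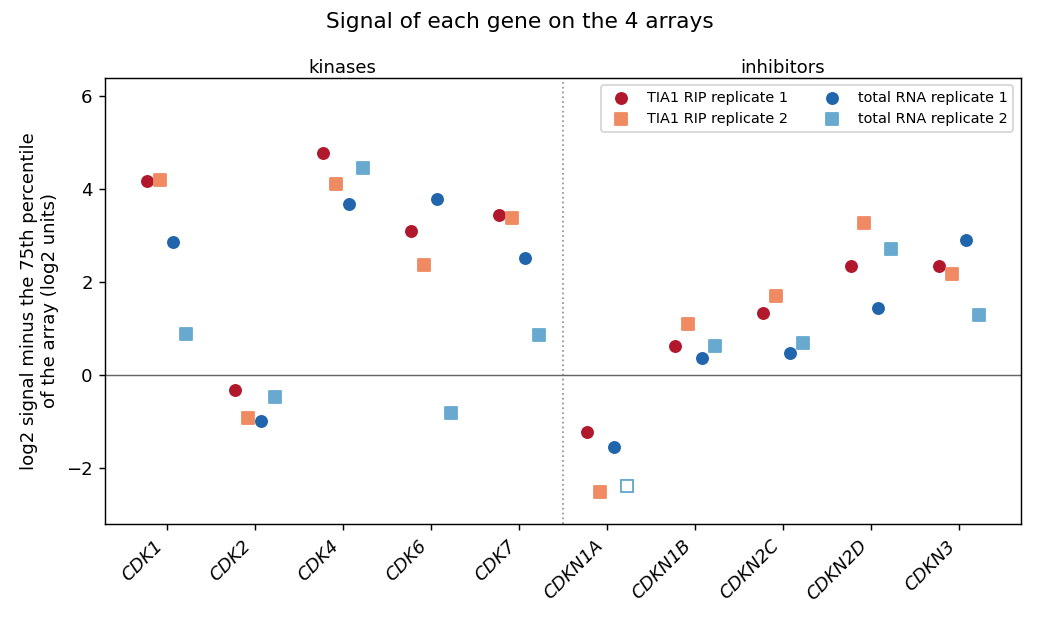
Signal of each of the 10 genes on the 4 arrays, as log2 of the processed fluorescence minus the 75th percentile of the array (vertical axis, log2 units). Each point is 1 array, circles are replicate 1 and squares replicate 2, TIA1 RIP in red and orange and total RNA in blue, and the open square of CDKN1A marks a signal that was not well above background. The TIA1 RIP points lie above both total RNA points for CDK1, CDK7 and CDKN2C, and total RNA replicate 2 of CDK6, at -0.81, lies far below the other 3.

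*CDK1*, the mitotic kinase (chr10:62538089-62554610, plus strand), had log2 signals of 4.18 and 4.20 in TIA1 RIP and of 2.87 and 0.88 in total RNA. The TIA1 RIP arrays were nearly equal, and both total RNA arrays were lower. The log2 ratio was 2.31 ± 0.93 (SE, n = 2 against 2; 95% interval 0.12 to 4.51), and limma gave a p of 0.0411 and an adjusted p of 0.776. Here and below, SE and interval come from limma, where eBayes moves the variance of each gene toward a value shared by all genes. They are therefore not the spread of the gene's own arrays alone. Before scaling, the geometric mean fluorescence of its 10 spots was 27389 and 23419 in TIA1 RIP and 5212 and 129 in total RNA. A second *CDK1* probe, designed for another *CDK1* transcript, was well above background on total RNA replicate 1 only and was not used. When it was averaged in, with no filter on detection, the log2 ratio of *CDK1* was 0.065.

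*CDK7*, the activating kinase (chr5:68530622-68573257, plus strand), had log2 signals of 3.45 and 3.38 in TIA1 RIP and of 2.52 and 0.87 in total RNA. As for *CDK1*, the TIA1 RIP arrays were close together and the total RNA arrays were lower and apart. Its log2 ratio was 1.72 ± 0.88 (SE, n = 2 against 2; 95% interval -0.36 to 3.80), with an adjusted p of 0.776 in limma. Of all genes, 93.6% had a lower ratio than *CDK7* and 98.2% a lower ratio than *CDK1*.

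*CDK6*, a G1 kinase (chr7:92234235-92465887, minus strand), had log2 signals of 3.10 and 2.38 in TIA1 RIP and of 3.79 and -0.81 in total RNA. Its highest and its lowest value were thus both total RNA arrays. The difference between them was -4.60, and 0.982% of all genes had a lower one. The fluorescence of its 1 probe was 12980 and 6621 in TIA1 RIP and 9878 and 39.9 in total RNA, and it was well above background on all 4 arrays. The log2 ratio was 1.25 ± 1.45 (SE, n = 2 against 2; 95% interval -2.18 to 4.68), with an adjusted p of 0.84 in limma. The 3 genes with the most similar signals by Euclidean distance over the 4 arrays were *HSPH1* (distance 0.398 log2 units), *CDCA2* (0.555) and *PPP2R5E* (0.569). Their log2 signals on total RNA replicate 2 were -1.10, -0.44 and -0.36. That array entered the distance, so low values there follow from how these genes were chosen.

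*CDK4*, the other kinase of D-type cyclins (chr12:58141510-58149796, minus strand), had log2 signals of 4.77 and 4.11 in TIA1 RIP and of 3.69 and 4.45 in total RNA. *CDK2*, the S phase kinase (chr12:56360565-56366573, plus strand), had -0.31 and -0.93 in TIA1 RIP and -0.97 and -0.47 in total RNA. The groups overlapped for both genes. The log2 ratio was 0.37 ± 0.81 for *CDK4* (95% interval -1.54 to 2.29) and 0.11 ± 0.79 for *CDK2* (95% interval -1.77 to 1.98; SE, n = 2 against 2 for both). These intervals leave room for differences of more than 1 log2 unit in either direction.

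Among the inhibitors, *CDKN2C*, an INK4 protein (chr1:51426417-51440306, plus strand), had log2 signals of 1.33 and 1.71 in TIA1 RIP and of 0.49 and 0.69 in total RNA. The replicates of each group were close to each other, total RNA replicate 2 included (SD 0.27 in TIA1 RIP and 0.14 in total RNA). The log2 ratio was 0.93 ± 0.77 (SE, n = 2 against 2; 95% interval -0.90 to 2.76), with an adjusted p of 0.785 in limma. *CDKN2D*, the related INK4 protein (chr19:10677136-10679735, minus strand), had 2.34 and 3.27 in TIA1 RIP and 1.46 and 2.72 in total RNA, so the groups overlapped. Its log2 ratio was 0.72 ± 0.87 (SE, n = 2 against 2).

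Of the Cip/Kip inhibitors, *CDKN1A* (chr6:36644237-36655114, plus strand) had log2 signals of -1.21 and -2.50 in TIA1 RIP and of -1.53 and -2.38 in total RNA. Replicate 1 was the higher in both groups, and on total RNA replicate 2 the signal of 13.5 was not well above background. The log2 ratio was 0.095 ± 0.87 (SE, n = 2 against 2), and it was -0.51 with normexp background correction. *CDKN1B* (chr12:12838432-12875303, plus strand) had 0.63 and 1.11 in TIA1 RIP and 0.37 and 0.64 in total RNA, a log2 ratio of 0.36 ± 0.78 (SE, n = 2 against 2). Its 2 probes differed in direction. The probe printed in 10 spots had log2 signals of 0.78 and 1.42 in TIA1 RIP and 0.12 and -0.27 in total RNA. The other probe, in 1 spot, had 0.48 and 0.80 against 0.63 and 1.54. Their log2 ratios were 1.17 and -0.44.

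*CDKN3*, the phosphatase (chr14:54863567-54886936, plus strand), had log2 signals of 2.34 and 2.17 in TIA1 RIP and of 2.91 and 1.29 in total RNA. The TIA1 RIP values lay between the total RNA values. The log2 ratio was 0.16 ± 0.88 (SE, n = 2 against 2). Its 2 probes had log2 ratios of 0.64 and -0.32, and on each of them total RNA replicate 1 was the highest of the 4 arrays.

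Kinases and inhibitors were then set side by side. On the group means, the median log2 ratio was 1.25 over the 5 kinases, from 0.11 to 2.31, and 0.36 over the 5 inhibitors, from 0.095 to 0.93. The difference was 0.89, and over the 4 pairs of a TIA1 RIP array with a total RNA array it had an SD of 1.11. The pairs share arrays, so this SD describes how far they differ and is not the error of the 0.89. The genes are not replicates either, so no test was made. Against total RNA replicate 2, the kinase median was 2.58 with TIA1 RIP replicate 1 and 2.51 with replicate 2, where the inhibitor median was 0.64 and 0.55 and that of all genes -0.29 with either array. Against total RNA replicate 1, the kinase median was 0.94 and 0.42, the inhibitor median 0.32 and 0.74, and that of all genes 0.065 and 0.067. The order of kinases and inhibitors thus turned in the pair of TIA1 RIP replicate 2 with total RNA replicate 1, where the difference was -0.31. Without a filter on detection, the difference of the medians on the group means was 0.0078. Among the kinases and inhibitors, only the log2 ratio of *CDK1* changed in that setting, from 2.31 to 0.065. A *CDK1* probe otherwise left out was then averaged in. The kinase median thereby fell to the log2 ratio of *CDK4*, at 0.37, while the inhibitor median stayed at 0.36.

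**Figure D2:**
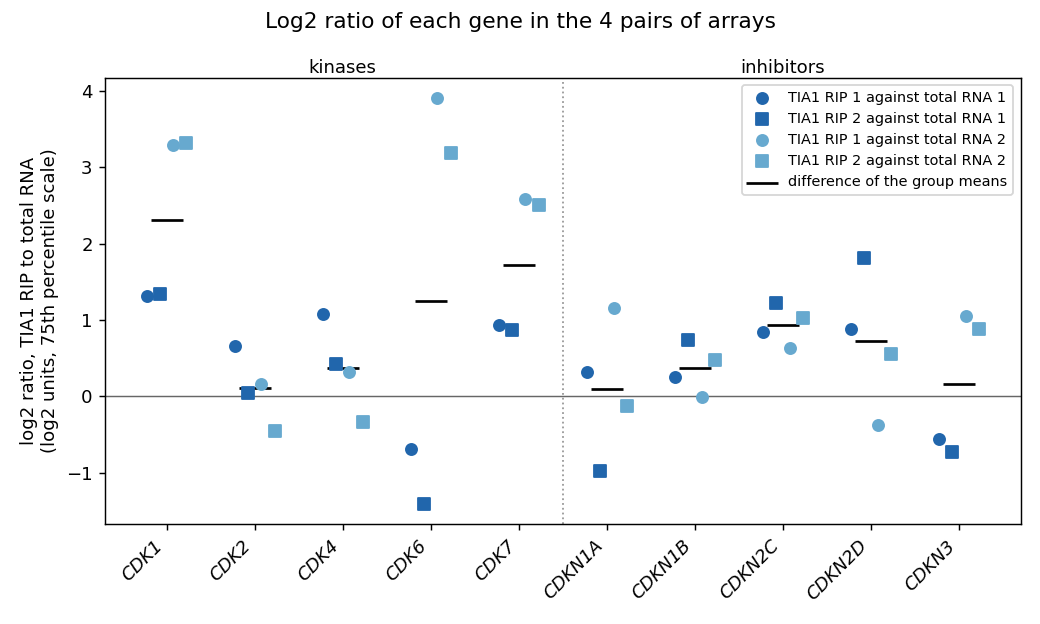
Log2 ratio between TIA1 RIP and total RNA for each of the 10 genes in each of the 4 pairs of arrays (75th percentile scale). Circles are TIA1 RIP replicate 1 and squares replicate 2, dark blue is against total RNA replicate 1 and light blue against replicate 2, and black bars are differences of the group means. CDK6 lies at -0.69 and -1.41 against total RNA replicate 1 and at 3.91 and 3.19 against total RNA replicate 2, while CDKN2C stays between 0.64 and 1.22 in all 4 pairs.

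The total RNA arrays differed from each other in both classes of genes. Total RNA replicate 2 minus replicate 1 had a median of -1.64 over the kinases and 0.20 over the inhibitors, against 0.38 over all genes. *CDK1* (-1.98), *CDK6* (-4.60), *CDK7* (-1.64) and *CDKN3* (-1.62) were lower on replicate 2 by more than 1 log2 unit. *CDKN2D* was higher by 1.26. The corresponding differences between the TIA1 RIP arrays ran from -1.29 (*CDKN1A*) to 0.93 (*CDKN2D*).

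Across pairs, *CDK1* had log2 ratios of 1.31 and 1.34 against total RNA replicate 1, and of 3.29 and 3.32 against total RNA replicate 2. *CDK7* had 0.94 and 0.87, and then 2.58 and 2.51. *CDKN2C* had 0.84 and 1.22, and then 0.64 and 1.02. These were the 3 genes above 0 in all 4 pairs, which restates that both TIA1 RIP signals lay above both total RNA signals (19.4% of all genes). Pair by pair, 8 of the 10 genes were above 0 for TIA1 RIP replicate 1 against total RNA replicate 1 (53.2% of all genes), and 7 for TIA1 RIP replicate 2 against it (52.5%). Against total RNA replicate 2, these counts were 8 (45%) and 7 (44.9%). In both pairs with total RNA replicate 1, 7 of the 10 genes were above 0 (4 kinases and 3 inhibitors), against 41.2% of all genes. In both pairs with total RNA replicate 2, 5 of the 10 were above 0 (3 kinases and 2 inhibitors), against 39.6%. When total RNA replicate 1 was left out, *CDK1*, *CDK6* and *CDK7* passed the threshold in limma, with adjusted p-values of 0.0204, 0.0220 and 0.0276 and log2 ratios of 3.31, 3.55 and 2.55. The remaining total RNA array was then assumed to vary like the TIA1 RIP arrays, and 14.2% of all genes were called higher and 15.7% lower. When total RNA replicate 2 was left out, none of the 10 passed, and *CDK6* had a log2 ratio of -1.05.

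The study set enrichment against *GAPDH*, an abundant mRNA, and required over 2.5-fold both on the arrays and by sequencing. Only the arrays were analysed here, so the counts below hold for the array part alone. The study also reported binding of *CDK6* mRNA by quantitative PCR after RIP, relative to IgG. The log2 signal of *GAPDH* was 6.49 and 6.69 in TIA1 RIP and 7.67 and 9.63 in total RNA, a log2 ratio of -2.06. All 10 genes passed 2.5-fold relative to *GAPDH* on the group means, as did 72.4% of all genes. Their folds ran from 4.45 (*CDKN1A*) to 20.7 (*CDK1*), with 13.8 for *CDK7*, 9.91 for *CDK6* and 7.95 for *CDKN2C*. The value of *CDKN1A* rests in part on the total RNA array where it was not well above background, since 1 of its 2 total RNA arrays measured it. Without that array, 7 of the 10 passed, against 42.3% of all genes. *CDKN1A* then had a log2 enrichment of 0.75, under 2.5-fold, and *CDK6* and *CDKN3* were under it too. None of these passed limma on values relative to *GAPDH*, where the adjusted p-values lay between 0.221 and 0.305. Without total RNA replicate 1, all 10 passed it, as did 73.1% of all genes. Relative to the median of all genes, 2 of the 10 passed 2.5-fold (*CDK1* and *CDK7*), against 12.5% of all genes. After quantile normalization, 6 of the 10 passed relative to *GAPDH*, against 33.7% of all genes.

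In all 4 pairs, 6 of the 10 genes passed 2.5-fold relative to *GAPDH*, namely *CDK1*, *CDK4*, *CDK7*, *CDKN1B*, *CDKN2C* and *CDKN2D*, 3 kinases and 3 inhibitors. The share was 26.2% among all genes. The same 6 were those that passed in both pairs with total RNA replicate 1, where the share was 31.1%. *CDK2* and *CDKN1A* passed in 3 pairs, and *CDK6* and *CDKN3* in the 2 pairs with total RNA replicate 2. Against total RNA replicate 1, *CDK1* reached 5.62-fold and 4.96-fold with TIA1 RIP replicates 1 and 2, *CDKN2D* 4.19-fold and 6.92-fold, and *CDKN2C* 4.06-fold and 4.59-fold. *CDK6* reached 1.40-fold and 0.740-fold there, against 133-fold and 70.0-fold with total RNA replicate 2. Of all genes, 46% and 40% passed against total RNA replicate 1, and 76.7% and 77.7% against replicate 2.

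The GC content of the transcript moved with these values. It was below 42% in *CDK1* (35.4%), *CDK7* (39.3%), *CDK6* (39.7%) and *CDKN3* (41.6%), the 4 genes that were more than 1 log2 unit lower on total RNA replicate 2. The other transcripts ran from 44.9% in *CDKN2C* to 61.2% in *CDKN2D*. Across the 10 genes, GC content and the difference between the total RNA arrays had Pearson's r = 0.67 and Spearman's rho = 0.84. Across the 11513 genes with an annotated transcript, these were 0.70 and 0.72. The points share the same arrays, and genes are not independent replicates. From the lowest to the highest decile of GC content, the median difference between the total RNA arrays went from -2.08 to 2.09, and that between the TIA1 RIP arrays from -0.00425 to 0.15. The median log2 ratio of TIA1 RIP and total RNA went from 1.25 to -0.996 over the same deciles. This ratio is of the group means, which include total RNA replicate 2, so a gene low on that array has a higher ratio. It is therefore not independent of the difference between the total RNA arrays, and it is not given here against each total RNA array. GC content and the log2 ratio had r = -0.63 and rho = -0.68 across the 10 genes, and r = -0.63 and rho = -0.66 across all annotated genes. The part of GC content in the ratios was not tested.

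**Figure D3:**
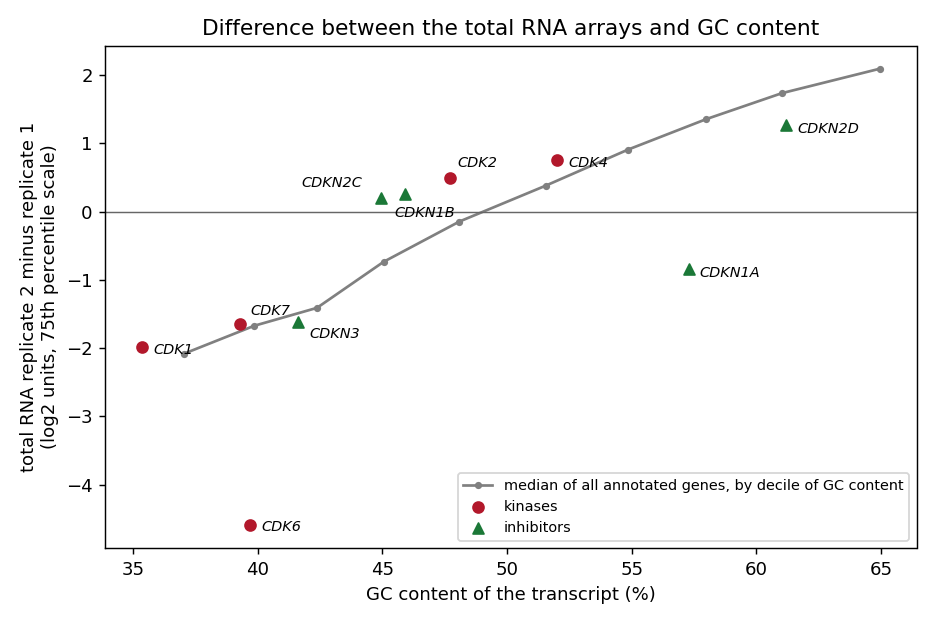
Total RNA replicate 2 minus replicate 1 (log2 units, 75th percentile scale) against the GC content of the transcript (percent). Red circles are the 5 kinases, green triangles the 5 inhibitors, and the grey line joins the medians of all annotated genes in 10 deciles of GC content, from -2.08 to 2.09. CDK6 (-4.60) and CDKN1A (-0.85) lie farthest below the line, and CDK1 and CDK7 lie close to it.

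Set beside the genes within 1 percentage point of their own GC content, the members differed from each other. The log2 ratios in this comparison are again of the group means, total RNA replicate 2 included. The log2 ratio of *CDK1* was 2.31, where the median of 293 such genes was 1.30, and that of *CDK7* was 1.72 beside a median of 0.97. *CDKN2D* had 0.72 beside a median of -0.77, and 97.5% of its 708 neighbours in GC content had a lower ratio. The corresponding share was 86.0% for *CDK1*, 77.6% for *CDK7*, 71.3% for *CDKN2C* and 63.9% for *CDK6*. It was 78.8% for *CDKN1A*, 75.1% for *CDK4*, 51.6% for *CDKN1B* and 46.3% for *CDK2*. *CDKN3* had 0.16 beside a median of 0.86, with 20.5% of its neighbours lower. The total RNA difference of *CDK6*, at -4.60, stood beside a median of -1.65 over 920 genes. That of *CDKN1A*, at -0.85, stood beside a median of 1.27. Between-array differences of *CDK1* and *CDK7* were near those of their neighbours (-1.98 beside -2.13, and -1.64 beside -1.72).

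Other genes of the pathway were described by lists. Of 16 further kinases of the family, 14 were kept (*CDK15* and *CDK17* were not). Their median log2 ratio was -0.44, with 6 above 0 and 8 below. Both TIA1 RIP signals lay above both total RNA signals in 3 of them and below in 6, against 19.4% and 21.7% of all genes. The median was below 0 in each of the 4 pairs, from -0.60 to -0.14. *CDK14* (1.81) and *CDK8*, the kinase of the Mediator complex (0.91), had the highest log2 ratios, and *CDK3* (-2.05) and *CDK16* (-1.61) the lowest. Of 3 further inhibitors, *CDKN2B* was not kept, *CDKN1C* had a log2 ratio of 1.02 and *CDKN2A* of -0.16.

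Cyclins that partner the 5 kinases had 7 of 9 genes kept (*CCND2* was not, and no probe was matched to *CCNA1*). On the group means, their log2 ratios were above 0 in 7 of 7, against 48.6% of all genes, with a median of 0.48, from 0.11 (*CCND3*) to 2.42 (*CCNE2*, a cyclin of CDK2). When total RNA replicate 1 was the comparison, 5 of 7 were above 0 with TIA1 RIP replicate 1 (median 0.77) and 3 of 7 with replicate 2 (median -0.11). With total RNA replicate 2, these counts were 7 (median 1.24) and 6 (median 0.68). *CCNA2*, a cyclin of CDK2 and CDK1, had log2 signals of 2.71 and 2.25 in TIA1 RIP and of 1.87 and 0.59 in total RNA. *CCNE2* had 1.27 and 0.77 in TIA1 RIP and 0.44 and -3.24 in total RNA. These were the 2 cyclins without overlap between the groups, both with TIA1 RIP above, as for 19.4% of all genes.

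Regulators of the kinases were all 18 kept, with a median of -0.015, 9 above 0 and 9 below. *CCNH* and *MNAT1*, the subunits that form the activating complex with CDK7, had log2 ratios of 1.29 and 0.78, and the groups overlapped for both. With total RNA replicate 1 and TIA1 RIP replicates 1 and 2, the log2 ratio was 0.18 and -0.52 for *CCNH* and -0.50 and -0.16 for *MNAT1*. With total RNA replicate 2 it was 3.09 and 2.39 for *CCNH* and 1.73 and 2.07 for *MNAT1*. *CDKN2AIP* (2.30) and *CDK2AP1* (1.95) had the highest log2 ratios of this list, and *CDK5RAP1* (-1.46) and *CDK5R2* (-1.45) the lowest. No gene of these 4 lists passed an adjusted p of 0.05 in limma, and *CDK2AP1* had an unadjusted p of 0.0439.

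**Figure D4:**
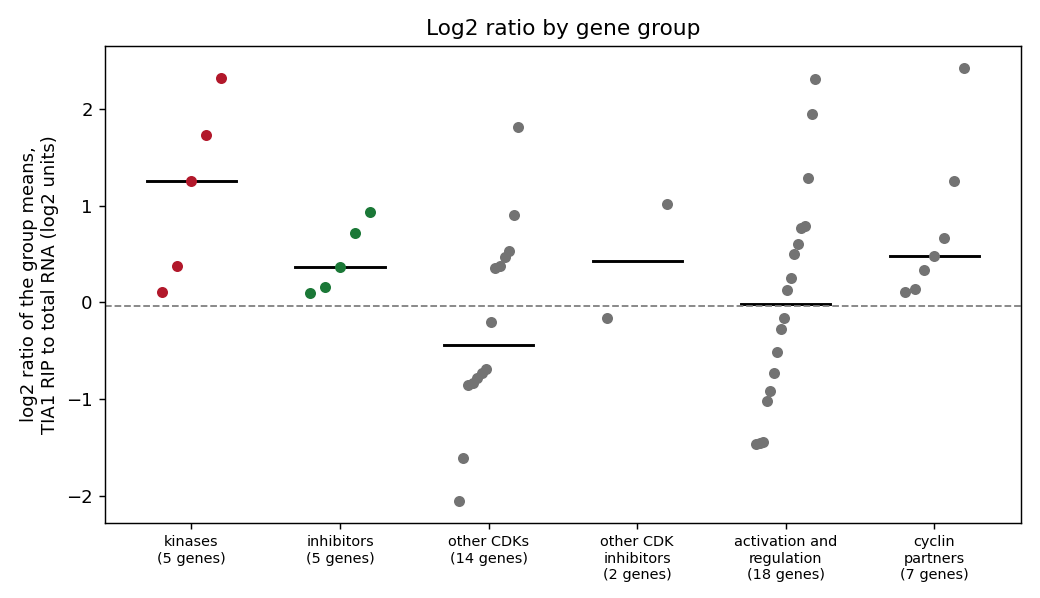
Log2 ratio between TIA1 RIP and total RNA on the group means (75th percentile scale) for the kinases, the inhibitors and the 4 lists of related genes. Each point is 1 gene, spread sideways for visibility, black bars are list medians, and the dashed line is the median of all genes at -0.036. The medians run from -0.44 in the other kinases to 1.25 in the 5 kinases.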

How the data were processed

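RNA from 2 TIA1 RIP samples and 2 total RNA samples was hybridized to single-colour arrays, and groups and replicate numbers came from the sample labels. The authors deposited the scanner output of Agilent Feature Extraction 10.7.1.1, in which each spot has a fluorescence intensity on a linear scale: a processed signal after background subtraction, and raw spot and background intensity. The deposited files also hold other columns, in which spots are flagged as not uniform, as outliers, as saturated or as above background. Values are not normalized between arrays. The authors' methods name GeneSpring for later steps and set immunoprecipitated mRNAs relative to their constitutive levels before the comparison with GAPDH. They name no test and no scaling between arrays for this step.

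From the 58717 spots per array other than controls, 299 to 382 outlying or non-uniform ones were removed, and 0 were saturated. Processed signals were converted to log2, the 75th percentile of the array was subtracted, and each probe took the mean of its spots. Probes counted as detected with a share of at least 0.5 of spots well above background. Detection on both arrays of 1 or both groups was required (20099 of 50599 probes). Transcript identifiers gave symbols for 34506 probes (68.2%). Kept probes of a gene were averaged, giving 13037 genes; the 10 genes had 13 probes, of which 12 were kept. limma 3.58.1 in R 4.3.3 tested TIA1 RIP against total RNA on this scale and relative to GAPDH (1 probe), with Benjamini-Hochberg adjustment and a threshold of 0.05. With 2 arrays a group, the number of arrays limits the precision. Transcripts, GC content and 3′ UTR windows came from GENCODE on GRCh37 (11513 genes, 88.3%), the build named in the file headers. Python 3.11.15, pandas 2.3.3 and matplotlib 3.10.9 were used for tables and figures.

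The genes named were the 10 genes, the lists of related genes with their 2 highest and 2 lowest members, both reference mRNAs, cell markers (except a marker that is not reported here) and the 3 genes nearest to CDK6. *CCNH* and *MNAT1*, and the values of *CCNA2*, were added after their values were seen. The members, lists and tests were chosen with earlier results of these data known. Alternatives covered background correction, scaling, detection filter, choice of probe, reference, fold, replicate block and each array left out.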

Additional observations from a re-analysis of the deposited data

How the results depend on the processing

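With 2 arrays a group, none of the 10 genes passed the adjusted threshold on all 4 arrays, and limma called 0 genes higher and 0 lower (144 and 524 at an unadjusted p under 0.05). Leaving out 1 array moved the number called higher between 0 and 1848 and the number called lower between 0 and 2051, both maxima without total RNA replicate 1; without TIA1 RIP replicate 1, 7 genes were lower. Genes past 2.5-fold relative to GAPDH ranged from 5509 (without total RNA replicate 2) to 10105, members past it from 7 to 10, and the kinase median minus the inhibitor median from 0.26 to 2.03 (without total RNA replicate 1). The log2 ratio ranged from -0.21 to 0.42 for CDK2, -0.0073 to 0.75 for CDK4, -1.05 to 3.55 for CDK6, -0.55 to 0.74 for CDKN1A, -0.65 to 0.97 for CDKN3, 0.12 to 0.60 for CDKN1B and 0.087 (without total RNA replicate 1) to 1.35 (without total RNA replicate 2) for CDKN2D. CDK2 and CDK4 were below 0 without total RNA replicate 1 (-0.14 and -0.0073), CDK2 also without TIA1 RIP replicate 1, CDKN1A without TIA1 RIP replicate 1 and without total RNA replicate 2 (-0.33), and CDK6 and CDKN3 without total RNA replicate 2.

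Past 2.5-fold relative to GAPDH, 9443 genes became 4398 and 10 members became 6 after quantile normalization. The median log2 ratio of all genes rose from -0.036 to 0.26, which by itself would bring more genes past the fold, not fewer. The log2 ratio of CDK1 rose from 2.31 to 2.58, but its log2 enrichment relative to GAPDH fell from 4.37 to 3.07. The ratio of GAPDH itself thus rose by more than that of CDK1. Restricted to probes detected on every array, 5931 of 9235 genes passed, and fewer genes were tested. Relative to the median gene instead of GAPDH, 1635 genes and 2 members passed. CDKN1A turned to -0.51 with normexp background correction and CDKN1B to -0.44 with its brightest probe. The cause of these changes was not tested. Same-numbered arrays deviated together across genes (r = 0.453), which 2 pairs cannot establish as pairing. With the replicate number as a block, 57 genes were higher and 299 lower, and no member was called (lowest adjusted p = 0.167, CDK1). In this balanced design the block leaves each ratio as it was. All 4 arrays shared 1 scan, so slide or scan as a block was not run. Dim signal limits total RNA replicate 2 most, where 32.2% of spots were well above background.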
